A study of Mus musculus with 6 samples.

Results

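Inflammasome and IL-1 family transcripts were measured as 9 genes chosen by name: the agonist cytokine genes Il1a, Il1b and Il18, the genes of their soluble antagonists Il1rn and Il18bp, and the inflammasome genes Nlrp3, Pycard, Casp1 and Gsdmd. All 9 were found among the 32285 features of the count table by matching Ensembl identifiers to GENCODE M21 symbols. All 9 were also among the 12568 genes that passed the filter on low counts. The cells were type 1 conventional dendritic cells (cDC1s), isolated by FACS from digested mLN of the strain C57BL/6. Every mouse, in both groups, had received 50 µg of HDM, an allergen extract of house dust mite, into the nose 24 h before the sort. The wild type group (WT) had 3 libraries, and the group with the genotype labelled Vps33BdeltaDC, a conditional knock-out of Vps33b (KO), had 3. Vps33b encodes a Sec1/Munc18 protein of endosome and lysosome traffic. Mice without HDM were not analysed here. The sources used here do not give the Cre driver, the deleted exons, the age or sex of the mice, or whether each library came from separate or pooled animals. The p-values therefore measure the spread between these libraries, which may be technical.

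As background, IL-1α (Il1a) and IL-1β (Il1b) signal through the same receptor, and the IL-1 receptor antagonist (Il1rn) occupies that receptor without signalling. IL-18 (Il18) drives interferon-γ production by T and NK cells, and IL-18 binding protein (Il18bp) neutralises it in solution. NLRP3 is a cytosolic danger sensor that assembles with the adaptor ASC (Pycard) to activate caspase-1 (Casp1). Caspase-1 then matures IL-1β and IL-18 and cuts gasdermin D (Gsdmd), whose fragment forms pores in the plasma membrane. Much of this system is controlled at the protein level, by cleavage and assembly, and RNA counts measure transcripts only.

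The libraries held between 11755944 and 18450678 counts. Vps33b itself was at 16.2, 19.1 and 13.8 CPM (read counts brought to a common library total with TMM scaling) in WT replicates 1, 2 and 3 and at 5.0, 7.01 and 8.29 CPM in KO. Every KO library was below every WT library, at 41.3% of the WT mean. Its edgeR quasi-likelihood adjusted p was 0.834 and its unadjusted p 0.000567. A two-sided exact permutation over the libraries reached its lower limit of p = 0.1 for 3 against 3. The summed level of 10 cDC1 markers, led by Irf8 and Flt3, ran from 2880 to 3060 CPM in WT and from 2650 to 3190 CPM in KO. That sum is carried by its leading genes, and 3 of the 10 had an unadjusted edgeR p under 0.05, all lower in KO. They were Xcr1 at 37.3% of the WT mean, Wdfy4 at 54.2% and Clec9a at 76.7%, named after their values were seen, and the groups were apart for Xcr1 and Wdfy4. All 3 were highest in WT replicate 2, where Xcr1 was at 44.6 CPM against 5.72 to 13.5 CPM in the other libraries. Over all genes tested, 3.06% had an unadjusted edgeR p under 0.05 and were lower in KO. For 5.19% the groups were apart and KO was lower. Markers of other cells were also counted. The 12 monocyte and macrophage markers, led by Lyz2 and Apoe, summed to 404, 207 and 254 CPM in WT and to 220, 198 and 746 CPM in KO, so that KO replicate 3 was highest. The 6 B cell markers were highest in KO replicate 1, at 401 CPM against 113 to 291 CPM in the other libraries. The 10 neutrophil markers summed to at most 8.73 CPM, also in KO replicate 3, and Camp was at 0 in every library. KO replicate 3 was highest too for the summed markers of type 2 conventional dendritic cells (229 CPM) and NK cells (92.7 CPM). The same held for stromal and epithelial markers (40.4 CPM). Sums for plasmacytoid dendritic cell, T cell, and mast cell and basophil markers were highest in other libraries. In bulk RNA, fewer cells of a type and less RNA per cell cannot be told apart. The part of other cells in the results was not tested.

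Both IL-1 agonist genes lie close to each other on chromosome 2 on the minus strand, Il1a (ENSMUSG00000027399) from 129299610 to 129309972 and Il1b (ENSMUSG00000027398) from 129364570 to 129371139 in mm10. Il18 (ENSMUSG00000039217) is on chromosome 9, plus strand, 50554827 to 50581840. Il18bp (ENSMUSG00000070427) is on chromosome 7, minus strand, 102014885 to 102018690. The promoters of these 4 genes are shown because Il1a and Il1b lie close together with very different levels, and because Il18 and Il18bp encode a cytokine and its inhibitor whose fold changes had opposite signs, though neither passed the adjusted test. Each runs 5′ to 3′ on the strand of its gene, from 250 bases before the RefSeq start to 50 bases after it, in the GRCm38.p6 assembly. The Il18 window ends before the gene start given above, and the Il18bp window lies inside the gene. Distances below are counted from the RefSeq starts. Capitals mark matches to the motifs searched.
Il1a, chr2:129309923-129310222, minus strand: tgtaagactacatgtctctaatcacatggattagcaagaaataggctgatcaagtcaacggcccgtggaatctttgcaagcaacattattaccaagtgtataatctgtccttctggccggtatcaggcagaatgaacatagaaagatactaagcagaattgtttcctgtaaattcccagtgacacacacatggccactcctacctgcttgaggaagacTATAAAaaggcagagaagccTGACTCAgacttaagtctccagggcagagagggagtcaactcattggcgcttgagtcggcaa
Il1b, chr2:129371090-129371389, minus strand: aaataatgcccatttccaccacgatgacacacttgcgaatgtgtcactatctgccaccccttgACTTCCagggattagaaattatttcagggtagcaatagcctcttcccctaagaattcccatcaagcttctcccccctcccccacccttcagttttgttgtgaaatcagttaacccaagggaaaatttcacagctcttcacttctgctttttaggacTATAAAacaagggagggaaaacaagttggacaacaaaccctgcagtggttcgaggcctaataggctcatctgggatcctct
Il18, chr9:50554450-50554749, plus strand: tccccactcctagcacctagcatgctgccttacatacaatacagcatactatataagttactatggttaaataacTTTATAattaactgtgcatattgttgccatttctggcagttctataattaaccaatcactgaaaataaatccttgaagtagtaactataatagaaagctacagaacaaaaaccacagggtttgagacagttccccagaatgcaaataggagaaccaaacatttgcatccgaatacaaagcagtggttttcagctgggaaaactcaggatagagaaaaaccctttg
Il18bp, chr7:102018183-102018482, minus strand: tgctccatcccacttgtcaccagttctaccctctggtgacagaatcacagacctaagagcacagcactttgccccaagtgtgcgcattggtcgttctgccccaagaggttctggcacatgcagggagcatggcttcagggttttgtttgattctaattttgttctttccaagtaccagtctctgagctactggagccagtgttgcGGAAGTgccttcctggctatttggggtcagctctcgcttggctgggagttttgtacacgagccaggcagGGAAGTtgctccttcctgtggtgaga

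The motifs were searched on both strands of these 300 base windows. They were a TATA box (TATAAA, in 13.6% of 32851 RefSeq mouse promoters of the same length), an AP-1 site (TGANTCA, 7.81%), an ETS core (GGAAGT, 23.8%), an interferon-stimulated response element (GAAANNGAA, 8.56%) and an NF-kB site (GGGANTTCC, 1.68%). Il1a held a TATA box whose first base was 32 bases before the start, and an AP-1 match 12 bases before it. Il1b held a TATA box 31 bases before the start and an ETS match on the opposite strand, 187 bases before the start. Il18 held its TATA match on the opposite strand, 175 bases before the start. Il18bp held 2 ETS matches, 45 bases before and 24 bases after the start, and no TATA match. Il1rn, with 3 listed starts, held an AP-1 match 141 bases before 1 of them and an opposite-strand TATA match 14 bases after another, and Pycard held an ETS match 44 bases before its start. Neither Casp1 nor Nlrp3 held any of the motifs. The matches of a gene did not overlap each other. Promoters were found for 8 of the 9 genes. A match is a description of letters, and binding was not measured.

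Corrected for length, the pore protein transcript was the most abundant of the 9 and the transcripts of NLRP3 and IL-1α the least. Levels were divided by the length of the principal transcript in GENCODE M21, giving CPM per kilobase. Gsdmd stood at 238 ± 21.7 in WT and 212 ± 27.5 in KO (CPM per kilobase, SD, n = 3 each). Its lowest library, at 189, was above the highest library of any other member, and its mean was at the 97.3 percentile of the genes tested. Il1b averaged 44.4 over the 6 libraries, Casp1 35.9 and Il18bp 33.4, and the ranges of these neighbours overlapped. Pycard at 14.3 and Il1rn at 12.8 came next and also overlapped. Il18 averaged 5.18, with a range from 2.36 to 8.81 that reached into that of Il1rn, from 7.04 to 19.8. Nlrp3 at 0.875 and Il1a at 0.646 closed the order, with overlapping ranges and at the 14.6 and 11.1 percentiles. Mean Gsdmd was thus 5.07 times Il1b, 43.4 times Il18 and 257 times Nlrp3 per kilobase. With the union of all annotated exons as the length, Casp1 at 35.9 came above Il1b at 31.6, and the ranges of Il18bp and Pycard overlapped. The length of Pycard was 3800 bases by either measure, so this check does not test its place. Before division by length Pycard averaged 54.3 CPM, beside 53.7 CPM for Casp1 and 53.2 CPM for Il18bp.

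The question put to KO and WT was which of these transcripts differ once Vps33b is deleted, and none passed the edgeR quasi-likelihood test at an adjusted p under 0.05. Over all 12568 genes, 0.0% passed, while 725 genes (5.77%) had an unadjusted p under 0.05. DESeq2 called 10 genes and limma-voom 0, with no member among them. Of the 9 members, 2 had an unadjusted p under 0.05, Il18bp on the higher and Il18 on the lower side. In 3 of the 9, Il18, Il1b and Il18bp, the groups did not overlap, against 10.6% of all genes tested. With upper-quartile scaling the groups of Il18bp overlapped, which left 2 of the 9. Log2 fold changes were above 0 for 3 members, Il18bp, Il1rn and Pycard, and below 0 for the other 6. Their median was -0.17, against 0.0043 over all genes tested.

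**Figure D1:**
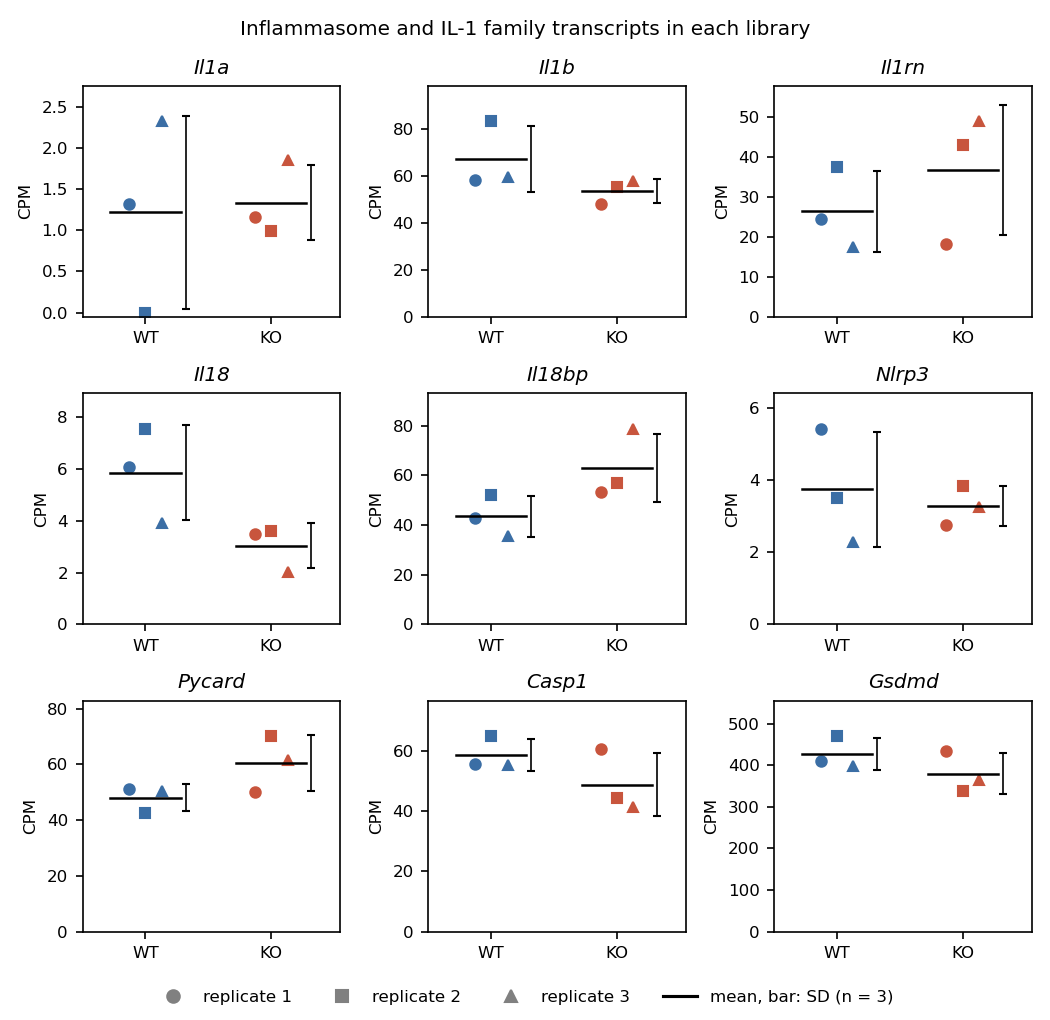
Level of each of the 9 transcripts in TMM-scaled CPM in WT and KO libraries. Replicates are shapes, group means are lines and SDs are bars (n = 3). Vertical axes are linear and start at 0, or just below 0 for Il1a. The groups are apart in the Il1b, Il18 and Il18bp panels (for Il18bp not with upper-quartile scaling), and 1 WT library of Il1a lies at 0.

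Among the agonists, Il1b was well detected and Il1a barely so, and neither passed the test. Il1b was at 58.2, 83.1 and 59.5 CPM in WT and at 47.9, 55.1 and 57.5 CPM in KO. Every KO library was below every WT library, but the gap between the groups was only from 57.5 to 58.2 CPM, and WT replicate 2 stood well above the rest. WT averaged 66.9 ± 14 CPM and KO 53.5 ± 5.01 CPM (SD, n = 3 for each). On the log2 scale KO differed by -0.32 ± 0.17 (SE; edgeR adjusted p 0.834). Without WT replicate 2 it was -0.15. Il1a had 24, 0 and 44 counts in WT and 16, 17 and 21 in KO, or 1.32, 0 and 2.33 CPM against 1.16, 0.993 and 1.85 CPM. The 0 in WT replicate 2 allows up to 3 counts, or 0.203 CPM, by counting error alone, which is below every other library. The log2 fold change of Il1a was -0.02 ± 0.79 (SE), and its 95% interval ran from 0.298-fold to 3.24-fold. In WT its spread between libraries was 96.1%, against 21% from counting error alone. A difference within those bounds was not detectable in these libraries. Antisense and overlapping genes share exon bases with both, 11.25% for Il1a and 1.31% for Il1b, and whether the counting used strand is unknown here.

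The antagonist Il1rn (ENSMUSG00000026981, chromosome 2, plus strand, 24336853 to 24351494) varied within both groups. It was at 24.5, 37.4 and 17.4 CPM in WT and at 18.3, 43.0 and 48.9 CPM in KO. KO replicates 2 and 3 were above all WT libraries, whereas KO replicate 1 was near the bottom, so the groups overlapped. The coefficient of variation was 38.4% in WT and 44.2% in KO, against 4.75% and 4.41% from counting error alone. The edgeR log2 fold change of 0.49 ± 0.39 (SE) had an adjusted p of 0.885 and an interval from 0.746-fold to 2.64-fold. Leaving out KO replicate 1 moved it to 0.81. Leaving out KO replicate 3 moved it to 0.25. The summed monocyte and macrophage markers were highest in that library, at 746 CPM, and lowest in KO replicate 2, at 198 CPM. Their part in the level of Il1rn was not tested. The ratio of Il1rn to Il1b within a library, per length, had log2 values of -2.12, -2.02 and -2.64 in WT and -2.25, -1.22 and -1.10 in KO. The agonist was thus above its antagonist in every library. The mean log2 ratio was 0.73 higher in KO, and an exact two-sided permutation test gave p = 0.3, or 0.533 adjusted over the 4 ratios compared.

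Il18 was lower in every KO library, as Il18bp was higher, though neither passed the adjusted test and the groups of Il18bp overlapped with upper-quartile scaling. Il18 was at 6.10, 7.57 and 3.92 CPM in WT and at 3.48, 3.62 and 2.03 CPM in KO. Every KO library was below every WT library, and KO replicate 3 was lowest. WT averaged 5.86 ± 1.84 CPM and KO 3.04 ± 0.881 CPM (SD, n = 3 for each), or 51.9% of WT. EdgeR gave a log2 fold change of -0.88 ± 0.40 (SE), an adjusted p of 0.834, an unadjusted p of 0.0496 and an interval from 0.296-fold to 0.999-fold. These levels rest on 23 to 112 counts a library, and the exact Poisson interval of KO replicate 2, from 2.78 to 4.64 CPM, overlapped that of WT replicate 3, from 3.08 to 4.92 CPM. The unadjusted edgeR p was no longer under 0.05 in 5 of the 6 comparisons that left out a library, all but that without WT replicate 3. There the log2 fold change lay between -1.05 (without KO replicate 2) and -0.68 (without WT replicate 2), with unadjusted p-values from 0.0662 to 0.147. Limma-voom gave an unadjusted p of 0.0827, upper-quartile scaling 0.0507 and no robust estimation 0.0534.

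Il18bp was higher in every KO library than in any WT library with TMM scaling. It was at 42.8, 52.1 and 35.5 CPM in WT and at 53.3, 56.8 and 78.9 CPM in KO. The gap between the groups was narrow, from 52.1 to 53.3 CPM, and KO replicate 3 stood apart at the top. That library also had the highest sum of monocyte and macrophage markers, 746 CPM against 198 to 404 CPM, whose part in the level of Il18bp was not tested. With upper-quartile scaling the groups of Il18bp overlapped. WT averaged 43.5 ± 8.36 CPM and KO 63.0 ± 13.9 CPM (SD, n = 3 for each), or 145% of WT. EdgeR gave 0.53 ± 0.20 (log2 fold change, SE), an adjusted p of 0.834, an unadjusted p of 0.0189 and an interval from 1.08-fold to 1.95-fold. The unadjusted p was no longer under 0.05 in 2 of the 6 comparisons that left out a library. The log2 fold change was then 0.34 without KO replicate 3 and 0.40 without WT replicate 3, with unadjusted edgeR p-values of 0.111 and 0.0864. In the other 4 it lay between 0.53 and 0.67. The exons of Il18bp share 2.64% of their bases with Numa1 on the opposite strand.

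Taken as a ratio within each library, which library scaling does not touch, Il18bp per length was 3.77, 3.70 and 4.86 times Il18 in WT and 8.19, 8.40 and 20.6 times Il18 in KO. The inhibitor transcript was above that of its cytokine in all 6 libraries, and the groups did not overlap. The geometric means were 4.08 and 11.2, a 2.76-fold difference. The exact two-sided permutation test gave p = 0.1, the lower limit of the design, and 0.4 adjusted over the 4 ratios. The difference of 1.46 on the log2 scale became 1.03 when KO replicate 3 was left out and 1.69 when KO replicate 1 was. The ratio rests on the 23 counts of Il18 in KO replicate 3 for its highest value.

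**Figure D2:**
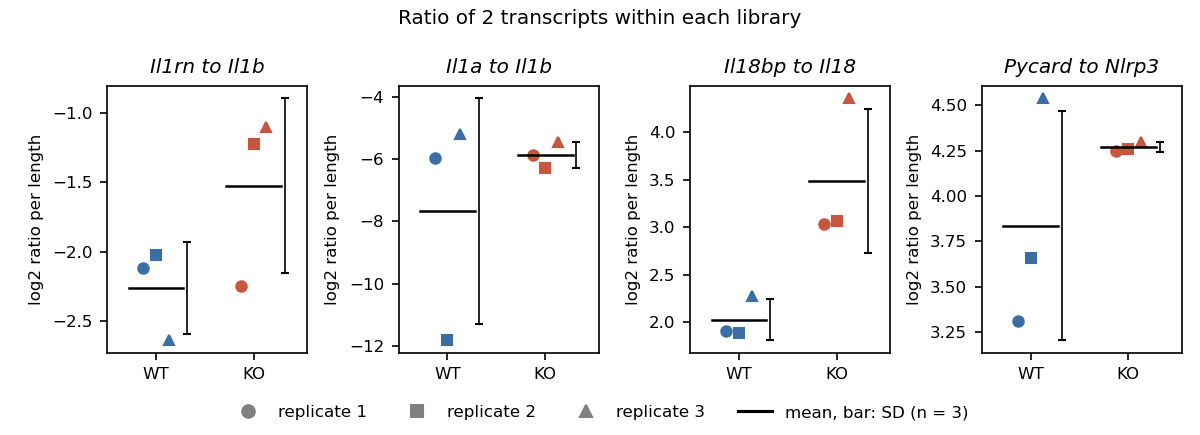
Log2 ratio of 2 transcripts per length within each library (vertical axes, not from 0) for 4 pairs, with replicates as shapes, means as lines and SDs as bars (n = 3). KO libraries lie above all WT libraries for Il18bp to Il18, and the groups overlap in the other panels.

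The sensor Nlrp3 (ENSMUSG00000032691, chromosome 11, plus strand, 59541568 to 59566956) was low and without a resolved difference. It was at 5.44, 3.52 and 2.28 CPM in WT and at 2.75, 3.85 and 3.26 CPM in KO, and the KO values lay inside the WT range. Its edgeR log2 fold change of -0.17 ± 0.43 (SE) had an adjusted p of 0.964 and an interval from 0.460-fold to 1.72-fold. It was 0.23 without WT replicate 1 and -0.45 without WT replicate 3. In KO the spread of 16.8% was close to the 14.6% of counting error, and in WT it was 42.6% against 12.4%.

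Nlrp3 was one of 14 listed inflammasome sensor genes, of which 11 were tested. Of the 11, 9 had a log2 fold change below 0, with a list median of -0.38 against 0.0043 over all genes, and 3 had an unadjusted edgeR p under 0.05, all lower in KO. Over all genes tested, 49.4% were below 0, 5.77% had an unadjusted p under 0.05 and 3.06% had one and were lower in KO. In the same 3 sensors the groups did not overlap, against 10.6% of all genes. None passed the adjusted test. Aim2, a sensor of cytosolic DNA, was at 91.4, 93.7 and 92.6 CPM in WT and at 81.6, 62.5 and 64.5 CPM in KO. Its groups did not overlap, and its log2 fold change was -0.41 ± 0.14 (SE; edgeR adjusted p 0.834). Nlrp1b, another of the listed sensors, was at 13, 9.54 and 5.82 CPM in WT and at 4.85, 2.74 and 5.12 CPM in KO. Its groups did not overlap either, and its log2 fold change was -1.20 ± 0.40 (SE; edgeR adjusted p 0.834). The third was Naip5, a receptor for bacterial flagellin, at 51.4, 42.9 and 58.2 CPM in WT and at 39.8, 41.2 and 36.3 CPM in KO, named after its values were seen. Its log2 fold change was -0.38 ± 0.16 (SE; edgeR adjusted p 0.834). Nlrp1a and Nlrp1b, and Naip1, Naip2, Naip5 and Naip6, are close paralogs, so their counts are uncertain where reads could match several copies. Nlrp6 and Nlrp12 were at 0 in all libraries.

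**Figure D3:**
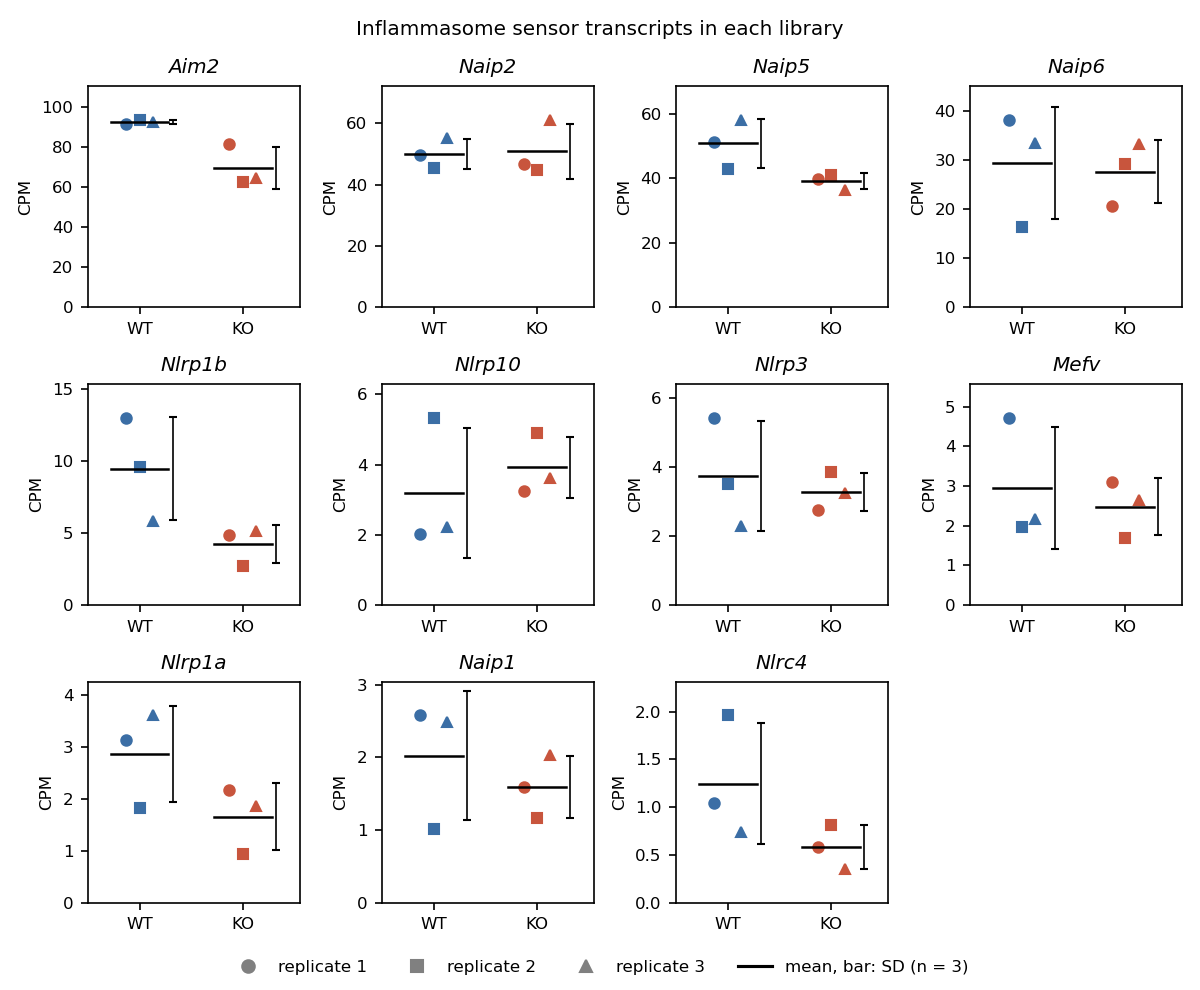
Level of the 11 tested inflammasome sensor transcripts in TMM-scaled CPM (vertical axes, linear, from 0) in WT and KO libraries, with replicates as shapes, means as lines and SDs as bars (n = 3). The groups are apart for Aim2, Naip5 and Nlrp1b, and overlap in the other 8 panels, Nlrp3 among them, where 10.6% of all genes tested have groups apart.

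The adaptor and the protease leaned in opposite directions without passing the test. Pycard (ENSMUSG00000030793, chromosome 7, minus strand, 127989708 to 127993867) was at 51.1, 42.5 and 50.5 CPM in WT and at 50.2, 70.2 and 61.6 CPM in KO. KO replicates 2 and 3 were above all WT libraries, and KO replicate 1 was among them. EdgeR gave Pycard a log2 fold change of 0.34 ± 0.16 (SE), an adjusted p of 0.834 and an interval from 0.984-fold to 1.62-fold. Exon bases of Pycard are shared with Gm45205 on the opposite strand over 12.76% of their length. Casp1 (ENSMUSG00000025888, chromosome 9, plus strand, 5298517 to 5307265) was at 55.7, 64.9 and 55.3 CPM in WT and at 60.6, 44.4 and 41.3 CPM in KO. Here KO replicates 2 and 3 were below all WT libraries and KO replicate 1 was again among them. For Casp1 it was -0.26 ± 0.17 (log2 fold change, SE), with an edgeR adjusted p of 0.853 and an interval from 0.642-fold to 1.09-fold.

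The log2 ratio of Pycard to Nlrp3 per length was 3.31, 3.66 and 4.54 in WT and 4.25, 4.26 and 4.30 in KO, so adaptor transcript exceeded sensor transcript in every library. The KO values lay close together inside the WT range, and an exact two-sided permutation test gave p = 0.4. Casp4, the mouse caspase that senses cytosolic lipopolysaccharide, had a log2 fold change of -0.23 ± 0.18 (SE), and Casp8, which links death receptors to the same system, 0.21 ± 0.21. None of the 4 adaptor and caspase genes tested had an unadjusted edgeR p under 0.05.

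Gsdmd (ENSMUSG00000022575, chromosome 15, plus strand, 75862327 to 75867408) was at 410.0, 470.0 and 398 CPM in WT and at 434, 339 and 365 CPM in KO. KO replicates 2 and 3 were below all WT libraries and KO replicate 1 was second highest of the 6. KO differed by -0.17 ± 0.13 on the log2 scale (SE), at an edgeR adjusted p of 0.884, with an interval from 0.726-fold to 1.09-fold, the narrowest of the 9. Gsdme, a gasdermin cut by caspase-3, was at 3.68, 6.42 and 3.92 CPM in WT and at 6.45, 10.3 and 9.61 CPM in KO. The groups were separated only by the step from 6.42 to 6.45 CPM, and the log2 fold change was 0.95 ± 0.34 (SE; edgeR adjusted p 0.834). Ninj1, whose protein carries out plasma membrane rupture, had a log2 fold change of -0.10 ± 0.23 (SE). The other 7 listed genes of this group were not tested, and Gsdma2, Gsdmc, Gsdmc2 and Gsdmc3 were at 0 in every library.

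**Figure D4:**
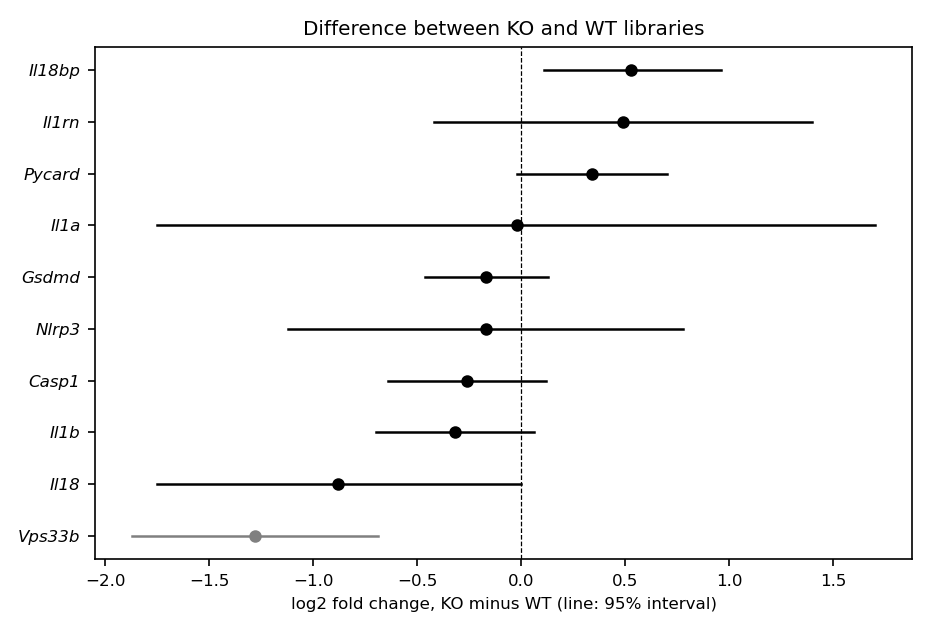
Log2 fold change of KO against WT (horizontal axis) for the 9 transcripts in black and Vps33b in grey, with points for estimates and lines for 95% intervals from edgeR. The interval of Il18bp lies above 0, that of Il18 ends at 0.999-fold just under no change, and the other 7 members' intervals include 0.

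Counts of members past a limit moved most when KO replicate 1 was left out. Without it, 5 of the 9 members had an unadjusted edgeR p under 0.05 (Casp1, Gsdmd, Il18bp, Il1rn and Pycard), where 12.3% of all genes did, and the groups were apart in 7 of the 9, where 30.7% of all genes were. Without KO replicate 3, 0 of the 9 had an unadjusted edgeR p under 0.05, where 3.36% of all genes did. No member passed the adjusted test with either left out. Within WT, replicate 2 was highest for 6 of the 9 members (Il1b, Il1rn, Il18, Il18bp, Casp1 and Gsdmd) and replicate 3 was lowest for 6.

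Other genes of the pathway were read from 8 lists. Outside the 9 members the lists held 80 genes, of which 77 were in the table and 58 were tested. None passed the adjusted edgeR test, 5 (8.62%) had an unadjusted p under 0.05, and 9 (15.5%) had groups that did not overlap, beside 5.77% and 10.6% of all genes. Of those 5, Gsdme was higher, and Aim2, Nlrp1b, Naip5 and Dhx33 were lower in KO. Dhx33, an RNA helicase upstream of NLRP3, was at 33.2, 33.5 and 33.4 CPM in WT and at 23.1, 29.6 and 23.7 CPM in KO, with a log2 fold change of -0.38 ± 0.17 (SE; edgeR adjusted p 0.834). The median over the 58 was -0.05, with 27 above 0 and 31 below.

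Of the 8 receptor genes 6 were tested, and none had an unadjusted edgeR p under 0.05. The decoy receptor gene Il1r2 was at 5.28, 7.98 and 5.66 CPM in WT and at 4.93, 3.33 and 3.18 CPM in KO, so the groups did not overlap. Its log2 fold change was -0.71 ± 0.35 (SE), and that of the shared receptor subunit gene Il1rap was -0.82 ± 0.42. Of 13 signalling genes, 5 had a log2 fold change above 0 and 8 below. Myd88, the adaptor of the IL-1 and IL-18 receptors, had 0.31 ± 0.19 and its kinase partner Irak4 -0.41 ± 0.28 (SE). The alarmin gene Il33 was near the floor, at 0.424 to 1.96 CPM, and Il1f5, Il1f6, Il1f8 and Il1f10 were at 0 in all libraries. Of 16 licensing and trigger genes tested 10 were above 0 and 6 below, with Txnip at -0.35 ± 0.23. Of 8 tested genes listed as inhibitors 3 were above 0 and 5 below. Pstpip1 had -0.32 ± 0.18 and Serpinb1a -0.22 ± 0.14 (log2 fold change, SE), and whether either inhibits in these cells was not tested.

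For the 5 members whose log2 CPM spanned more than 1 over the libraries, the genes with the most similar profile were sought among 9018 protein-coding genes, by the root mean square difference of centred log2 CPM over the 6 libraries. Nearest to Il1rn were Isg15 (0.139), Ifitm2 (0.170) and Eif4ebp1 (0.177), of which the first 2 are interferon-stimulated genes. Isg15 was at 41.3, 61.3 and 32.4 CPM in WT and at 25, 68.4 and 73.2 CPM in KO. Its low value in KO replicate 1, as for Il1rn, follows from how it was picked. Nearest to Il18 were Rcn3 (0.109), the neutrophil chemokine gene Cxcl2 (0.135) and Rab38 (0.169). Cxcl2 was at 47.2, 54.7 and 24.8 CPM in WT and at 30.2, 25.8 and 15.5 CPM in KO. That it was lowest in KO replicate 3, as Il18 was, likewise follows from the search. Nearest to Il18bp were Ndufc1 (0.0913), Prdx1 (0.0922) and Ints10 (0.0953). Nearest to Nlrp3 were Car9 (0.0654), Tex30 (0.138) and Slco3a1 (0.144). For Il1a the nearest was Kctd10, at a larger distance of 0.378, followed by Fam136a (0.395) and Spred3 (0.467). Kctd10 was at 13.5 CPM in WT replicate 2 and at 108 to 170 CPM in the other libraries.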

How the data were processed

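RNA of sorted cDC1s was taken with Trizol and sequenced on an Illumina NovaSeq as paired reads of 150 bases, per the labels' protocols. The values deposited by the authors are raw gene counts without normalization. The submitters' processing notes name HISAT2 2.0.5, HTSeq and mm10. Not given in the sources used here are the release of the annotation, whether strand was used and how reads with several matches were handled. GENCODE M21 named 32235 of 32285 features (99.8%).

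KO was compared with WT over all 12568 genes kept by filterByExpr, with TMM scaling and edgeR 4.0.16 (glmQLFit with robust estimation and the newer quasi-likelihood method, glmQLFTest) in R 4.3.3. Adjustment was by Benjamini-Hochberg and the threshold was 0.05. The common biological coefficient of variation was 30.1%. Ratios were taken per length after adding 0.5 counts and tested by exact permutation. Intervals from counts cover counting error only. The test was checked on simulated data, with 50 genes altered at each fold size. The altered genes were drawn only from those with a mean of at least 5 CPM. The test recovered 14% of them at 1.5-fold, 58% at 2-fold, 82% at 3-fold and 86% at 4-fold. Of its 131 calls, 11 were false. A simulation without any difference between the groups gave 3 calls. Most changes of 1.5-fold were thus missed, so a gene that did not pass may still differ. Il18, Nlrp3 and Il1a averaged 4.45, 3.52 and 1.28 CPM, below the limit for altered genes. The recovery rates therefore do not describe these members. Within each group, all pairs of libraries differed by more than sampling noise. That spread may be technical and does not show that the libraries came from separate animals. Each library was counted as 1 replicate.

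The members and the lists were chosen with earlier results of these data known. The list symbols Irgb10, Pydc3 and Pydc4 had no match. Named genes were the members, Vps33b, the 2 other genes of each list with the smallest unadjusted p, the 2 markers of a list with the highest mean CPM, and the 3 nearest profiles of members spanning over 1 in log2 CPM; exceptions are said to be such. Promoters were RefSeq sequences. The alternatives tried were DESeq2 1.42.0, limma-voom (limma 3.58.1), scaling by RLE or the upper quartile, testing every gene or those above 1 CPM in 3 libraries, edgeR without robust estimation, the replicate number as a block, 2 counts added to ratios, and each library left out. The earlier quasi-likelihood method and union-exon lengths were added after the data were examined.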

Additional observations from a re-analysis of the deposited data

How the results depend on the processing

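No member passed the adjusted threshold under any alternative run. The lowest adjusted p over the alternatives was 0.261 for Il18bp, 0.283 for Pycard, 0.289 for Il1rn and 0.299 for Casp1. It was 0.404 for Gsdmd and 0.455 for Il18. All of these came from edgeR without KO replicate 1. Genes past the threshold in the whole table numbered 3 with no filter and 10 with DESeq2, and 0 to 7 with each library left out. Genes at an unadjusted p under 0.05 ranged from 376 (without KO replicate 2) to 1621 (without KO replicate 1) when a library was left out. Members at that level numbered 1 with upper-quartile scaling, limma-voom or no robust estimation, and 0 to 5 with a library left out. Members whose groups did not overlap numbered 2 with upper-quartile scaling, under which Il18bp overlapped, and ranged from 3 to 7 with a library left out. The log2 fold change of Il1a, near 0, changed sign to 0.12 with DESeq2, 1.14 with limma-voom, 0.12 with the earlier quasi-likelihood method and 0.18 with the replicate block, and ranged from -0.52 to 0.81 with a library left out. That of Nlrp3 ranged from -0.45 to 0.23 with a library left out. The cause was not tested.

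With the replicate number as a block, 942 genes had an unadjusted p under 0.05 and 0 passed the threshold. Il18 was then at -0.95 and Il18bp at 0.53 (log2 fold change), both at an unadjusted edgeR p under 0.05. Same-numbered libraries did not deviate together from their group means, with correlations over genes of 0.00519, 0.0281 and -0.00126, and not every library correlated best with its own number, so the numbers were not taken as pairs. Il1a, Nlrp3 and Il18 rest on at most 112 counts a library, and their spread between WT libraries, 96.1%, 42.6% and 31.4%, was beyond the 21%, 12.4% and 10.1% of counting error.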

Other observations

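The IL-36 receptor gene Il1rl2, chosen after its values were seen, had 19, 8 and 11 counts in the WT libraries and 0 in each KO library, where 0 allows up to 3 counts by counting error alone. It was removed by the filter on low counts and was not tested. The IL-33 receptor gene Il1rl1, also chosen after its values were seen, had 19 counts in KO replicate 1 and 0 in the other 5 libraries. The main IL-1 receptor gene Il1r1 was at 0 in WT replicate 2 and in KO replicate 3, and at 16 to 25 counts in the other 4 libraries.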
